A study of Homo sapiens with 6 samples.

Results

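HLA class I molecules and their peptide loading genes were examined in HS578T cells, an established human breast carcinoma line of mesenchymal character, in the presence of an EP300 expression vector or of the empty vector. The set was HLA-B, HLA-C, HLA-E, HLA-F, B2M, TAP1, TAP2, TAPBP and NLRC5, and a member was measured where the array's annotation gave a probe set (a group of probes read as 1 value) its symbol. This held for 8 of the 9 genes, with 1 probe set each, out of 17687 genes and 21448 probe sets in all. HLA-B carried no named probe set and was not analysed here. The 3 control arrays came from cells with pcDNA 3 alone and the 3 EP300 arrays from cells with pcDNA 3 holding EP300 cDNA. EP300 encodes a lysine acetyltransferase and co-activator. Both kinds of cell had been selected as pools of stably transfected clones with G418, and both were grown in low-glucose DMEM with fetal calf serum, insulin and G418. It is not stated if cultures of the same condition shared 1 pool, so p-values measure the spread between cultures. EP300 transcript itself was not analysed here, which leaves the vector's expression in these cultures unmeasured.

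Class I molecules display peptides from inside the cell to cytotoxic T cells and natural killer cells. A polymorphic or less variable heavy chain (HLA-B, HLA-C, HLA-E, HLA-F) pairs with the invariant light chain beta-2-microglobulin, encoded by B2M. Peptides cut by the proteasome enter the endoplasmic reticulum through the transporter made of TAP1 and TAP2, which tapasin (TAPBP) bridges to empty class I molecules. NLRC5 is the transactivator of class I genes, and acts with the RFX, CREB/ATF and NF-Y factors at the conserved SXY region of class I promoters. Interferon gamma raises the transcription of most of these genes through factors that include IRF1, and acetyltransferases such as EP300 and CREBBP are known as co-activators at such promoters.

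The promoters are shown for both chains of the complex (B2M and HLA-C) and for the 3 loading genes TAP1, TAP2 and TAPBP, whose highest value fell on the same array, as described further on. Each run holds the 250 bases before the gene's start, on the gene's strand, from RefSeq's table of build GRCh38.p14, which matched 7 of the 9 members (not HLA-E and NLRC5). Capitals mark the letters CCAAT (Y box), TGACG (core of the X2 box), the interferon-stimulated response element written as GAAA, any 2 bases and GAAA, and the NF-kB site GGGATTCCC, each on either strand. The NF-kB letters do not occur in the 5 runs shown.
B2M, chr15:44711267-44711516, plus strand: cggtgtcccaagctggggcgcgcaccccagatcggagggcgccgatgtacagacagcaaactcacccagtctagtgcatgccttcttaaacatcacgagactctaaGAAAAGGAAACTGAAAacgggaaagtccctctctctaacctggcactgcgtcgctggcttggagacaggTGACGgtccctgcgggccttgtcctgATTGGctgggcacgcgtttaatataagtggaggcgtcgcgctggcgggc
HLA-C, chr6:31272093-31272342, minus strand: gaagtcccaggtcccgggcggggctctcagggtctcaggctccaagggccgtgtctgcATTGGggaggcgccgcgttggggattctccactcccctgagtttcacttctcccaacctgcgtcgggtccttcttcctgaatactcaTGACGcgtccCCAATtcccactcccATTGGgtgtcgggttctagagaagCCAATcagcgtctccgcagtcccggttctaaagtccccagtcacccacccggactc
TAP1, chr6:32853705-32853954, minus strand: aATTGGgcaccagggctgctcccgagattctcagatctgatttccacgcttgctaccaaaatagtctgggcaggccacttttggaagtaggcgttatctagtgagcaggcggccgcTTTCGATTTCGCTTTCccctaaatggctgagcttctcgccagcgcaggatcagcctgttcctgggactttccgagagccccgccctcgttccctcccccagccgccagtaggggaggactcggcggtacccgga
TAP2, chr6:32838740-32838989, minus strand: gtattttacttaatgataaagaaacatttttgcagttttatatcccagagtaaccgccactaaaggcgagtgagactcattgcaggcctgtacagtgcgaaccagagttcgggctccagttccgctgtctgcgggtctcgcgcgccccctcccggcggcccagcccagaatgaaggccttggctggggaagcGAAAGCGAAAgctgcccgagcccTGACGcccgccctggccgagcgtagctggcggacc
TAPBP, chr6:33314079-33314328, minus strand: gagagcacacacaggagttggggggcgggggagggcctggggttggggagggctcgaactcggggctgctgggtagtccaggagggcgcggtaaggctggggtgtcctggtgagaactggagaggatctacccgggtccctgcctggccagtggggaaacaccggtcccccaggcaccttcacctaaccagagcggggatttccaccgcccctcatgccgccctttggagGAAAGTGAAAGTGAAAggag

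The interferon element was found before B2M, HLA-F, TAP1, TAP2 and TAPBP, which is 5 of the 7 members, and in 3.02% of all 35116 promoter windows of that length. In B2M, TAP1 and TAPBP 2 such matches overlap each other. The Y box letters were found in 5 of the 7 (B2M, HLA-B, HLA-C, HLA-F and TAP1) and in 32.0% of all windows, and the X2 core in 4 of the 7 (B2M, HLA-B, HLA-C and TAP2) and in 21.2%. In HLA-C the X2 core lies 105 to 101 bases before the start, ahead of Y box letters on the reverse strand at 80 to 76 bases. In B2M the X2 core lies 75 to 71 bases and the reversed Y box 49 to 45 bases before the start. The NF-kB letters occurred before HLA-B alone among the members (0.362% of all windows). The GC box GGGCGG, which is not in capitals, occurred before HLA-C, TAP1, TAP2 and TAPBP (42.6%). These matches describe letters and show no binding. The start of TAP1 faces that of PSMB9, a subunit of the immunoproteasome, at a distance of 488 bases.

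The deposited values are read as log2, a scale inferred from their range, and the median of the 6 arrays lay between 4.46 and 4.50. No detection calls are given, so a probe set at background could not be told from a weakly expressed gene. All 8 mesenchymal markers that were checked (VIM, FN1, CD44, SPARC, COL1A2, ZEB1, TWIST1 and AXL) lay above the median level of the probe sets, as did 4 of 8 epithelial and luminal markers, 3 of 9 leukocyte markers (CD3E, CD68 and TYROBP) and 1 of 6 endothelial markers (VWF). The 4 epithelial and luminal markers above it were KRT8, ESR1, GATA3 and CLDN3, while CDH1 and EPCAM, named after their values were seen, lay below. TWIST1 exceeded the median level only narrowly in its mean, with values between the 44.7 and 56.1 percentiles of the arrays. VIM had the same value on all 6 arrays and gives no comparison. The groups did not overlap for 4 of the 8 mesenchymal markers: FN1, SPARC and COL1A2 were lower and AXL higher in EP300 cultures. Over all probe sets, the groups did not overlap with EP300 lower in 5.91% and with EP300 higher in 6.30%. SPARC read 19.93 in control replicates 2 and 3, the maximum of each of the 6 arrays, so a higher control level could not be seen. By limma 0 of the 8 markers passed, and their median log2 difference was -0.15. COL1A2 was the 1 with an unadjusted limma p below 0.05 (0.0451), beside 6.52% of all probe sets. The part of these marker values in the results on the class I genes was not tested. All 6 cultures were of the HS578T carcinoma line, and leukocyte markers are given because leukocytes carry much class I. Their summed log2 level was 37.3 to 39.0 in control and 37.0 to 38.5 in EP300 cultures, so the groups overlapped.

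None of the 8 measured members passed the test between EP300 and control cultures. By limma with Benjamini-Hochberg adjustment over all 21448 probe sets, 0 of 8 had an adjusted p below 0.05, where 0% of all probe sets did. At an unadjusted limma p below 0.05 there were 0 of 8 members, beside 6.52% of all probe sets. In 4 members the EP300 mean was the higher and in 4 the lower, with a median log2 difference of -0.049 over the 8, beside 0.0016 over all genes. B2M was the 1 member whose groups did not overlap, with EP300 higher, where 6.30% of all probe sets did so in that direction and 5.91% in the other. An array reads the mean over all cells of a culture, so a change in the share of cells that express a gene and a change in the level per cell cannot be told apart.

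**Figure D1:**
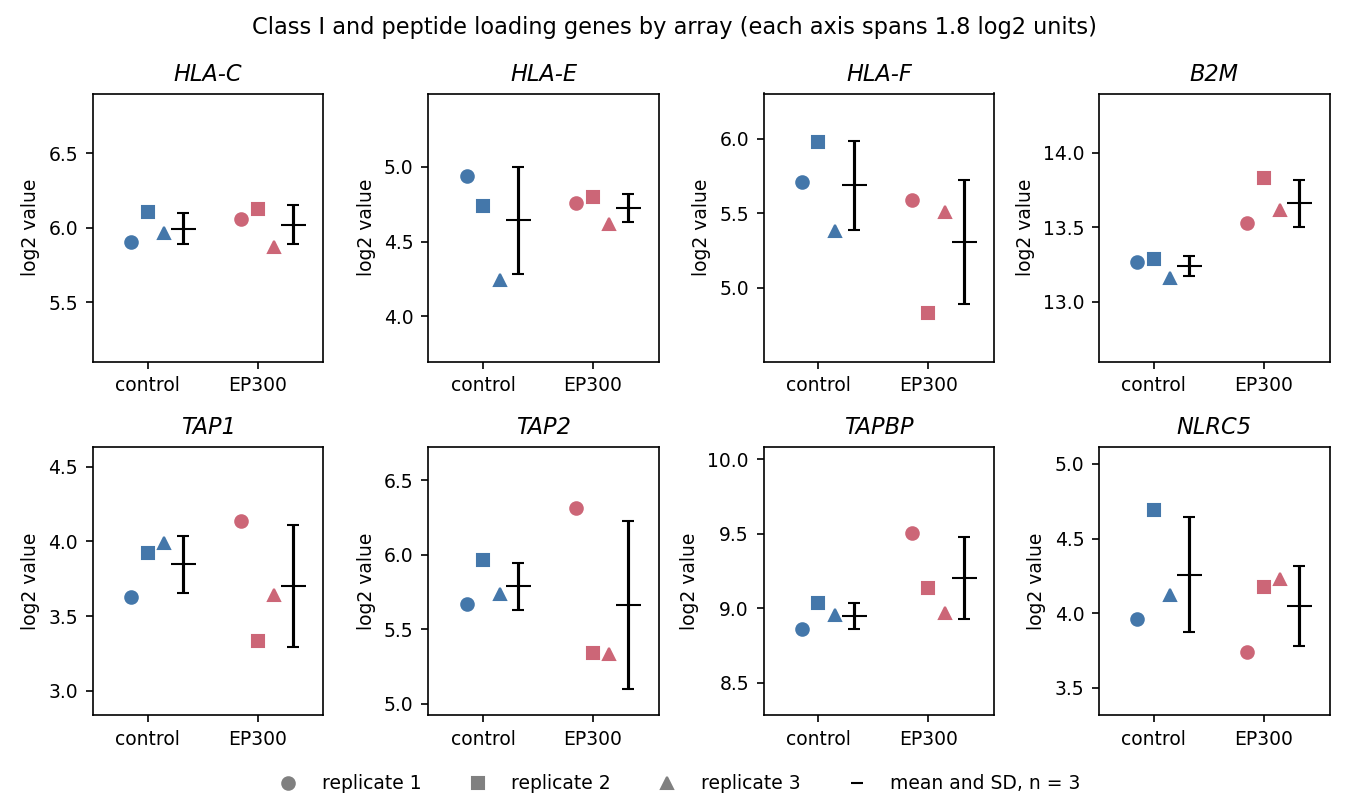
Log2 value of the 8 measured members on each array, with symbols for the replicate number and a black bar for mean and SD (n = 3) beside each group. The 3 EP300 values of B2M lie above the 3 control values, and in the other 7 genes the groups overlap. Panels share a span but not a level, and levels are not comparable between genes.

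The light chain gene B2M read 13.27, 13.29 and 13.16 in control replicates 1 to 3 and 13.53, 13.83 and 13.61 in EP300 replicates 1 to 3. Every EP300 culture thus lay above every control culture, and the highest value was that of EP300 replicate 2. The means were 13.24 ± 0.068 and 13.66 ± 0.15 (SD, n = 3 each), a 1.34-fold difference. The log2 difference of 0.42 ± 0.20 SE lay in a 95% interval that ran from -0.036 to 0.88, with limma adjusted p = 0.787 (0.627 to 0.877 under the alternatives). An exact permutation test, two-sided, gave p = 0.1, the lowest value possible with 3 against 3. Leaving out 1 array at a time kept the difference between 0.33 and 0.48. The level stood high on each array, between the 98.3 and 98.7 percentiles of all probe sets.

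The groups overlapped for all 3 measured heavy chain genes. The classical gene HLA-C read 5.91, 6.11 and 5.97 in control and 6.06, 6.13 and 5.87 in EP300 cultures. Both its highest and its lowest value were EP300 arrays, so the EP300 range enclosed that of the controls. The log2 difference was 0.028 ± 0.20 SE, with a 95% interval from -0.43 to 0.48 (limma adjusted p = 0.989), and it turned negative without control replicate 1 (-0.015) or EP300 replicate 2 (-0.026), and was 0.10 without EP300 replicate 3. Its value ranked between the 69.6 and 72.3 percentiles of the arrays.

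HLA-E encodes a non-classical chain whose usual cargo is the leader peptide of other class I chains and which is read by natural killer receptors. It read 4.94, 4.74 and 4.24 in control and 4.76, 4.80 and 4.62 in EP300 cultures. The EP300 values fell inside the control range, and control replicate 3 was the low array. The log2 difference was 0.081 ± 0.24 SE, from -0.45 to 0.61 (limma adjusted p = 0.971), and it was -0.12 without control replicate 3 and 0.23 without control replicate 1. HLA-E lay near the middle of the arrays, between the 45.2 and 57.8 percentiles.

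HLA-F, a non-classical chain that can reach the surface without peptide, read 5.71, 5.97 and 5.38 in control and 5.58, 4.83 and 5.50 in EP300 cultures. EP300 replicate 2 was the lowest array, and the other EP300 values lay within the control range. The log2 difference of -0.38 ± 0.27 SE was the largest downward one among the 8, with a 95% interval from -0.99 to 0.23 (limma adjusted p = 0.862). Without EP300 replicate 2 it was -0.14. HLA-C, HLA-E and HLA-F are close in sequence to each other and to further class I genes, and the part of a value that stems from another of these genes was not determined.

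The transporter genes TAP1 and TAP2 differed more within the EP300 group than between the groups. TAP2 read 5.67, 5.97 and 5.74 in control and 6.31, 5.34 and 5.34 in EP300 cultures, so that EP300 replicate 1 lay above and EP300 replicates 2 and 3 below all control arrays. Its SD was 0.56 in the EP300 and 0.16 in the control group. The log2 difference was -0.13 ± 0.29 SE, from -0.78 to 0.52 (limma adjusted p = 0.958), and -0.45 without EP300 replicate 1. It turned positive without EP300 replicate 2 (0.035) or EP300 replicate 3 (0.037).

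TAP1 read 3.63, 3.92 and 3.99 in control and 4.14, 3.33 and 3.64 in EP300 cultures. EP300 replicate 1 was again the highest array and EP300 replicate 2 the lowest. The log2 difference was -0.14 ± 0.26 SE, from -0.72 to 0.43 (limma adjusted p = 0.941), and -0.36 without EP300 replicate 1. Without EP300 replicate 2 it was 0.042. The TAP1 probe set was weak, between the 20.6 and 43 percentiles.

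TAPBP, which encodes tapasin, read 8.86, 9.03 and 8.95 in control and 9.51, 9.13 and 8.97 in EP300 cultures. EP300 replicates 1 and 2 lay above all control arrays, and EP300 replicate 3 lay among them. The log2 difference was 0.25 ± 0.22 SE, from -0.24 to 0.75 (limma adjusted p = 0.891), and 0.10 without EP300 replicate 1. Thus EP300 replicate 1 was the highest array for 3 of the 8 members, TAP1, TAP2 and TAPBP (37.5%), and for 15.6% of all genes. The share was also 37.5% among 8 epithelial and luminal markers. It was 35% among 20 other class I and class I-like genes and 42.9% among 7 immune cell receptors for class I. Among 11 chaperone and trimming genes it was 18.2%, and among 4 immunoproteasome and 11 class II genes 0%. What sets that array apart in TAP1, TAP2 and TAPBP was not tested.

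NLRC5, the class I transactivator, read 3.96, 4.69 and 4.12 in control and 3.74, 4.18 and 4.23 in EP300 cultures. Control replicate 2 was the highest array and EP300 replicate 1 the lowest, and the groups overlapped. The log2 difference was -0.21 ± 0.26 SE, from -0.79 to 0.37 (limma adjusted p = 0.921). It was 0.0056 without control replicate 2 and -0.36 without control replicate 1. The array that read highest for the 3 loading genes was thus the one that read lowest for NLRC5.

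**Figure D2:**
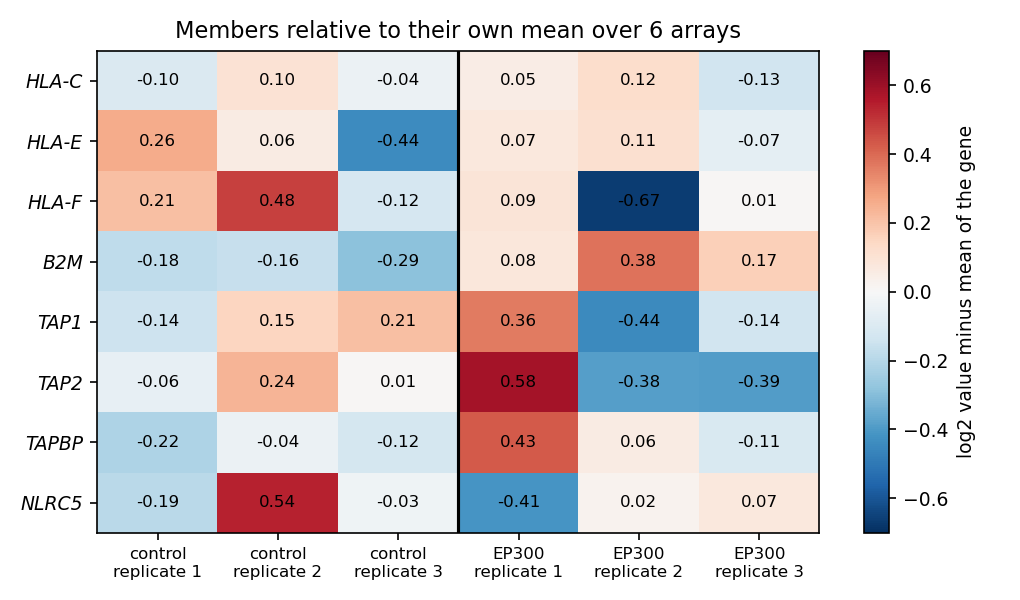
Each cell gives the log2 value of a member (rows) on an array (columns) minus the mean of that gene over the 6 arrays, with red above and blue below the mean. The EP300 replicate 1 column holds 0.36 for TAP1, 0.58 for TAP2 and 0.43 for TAPBP beside -0.41 for NLRC5, and B2M is negative on the 3 control and positive on the 3 EP300 arrays.

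**Figure D3:**
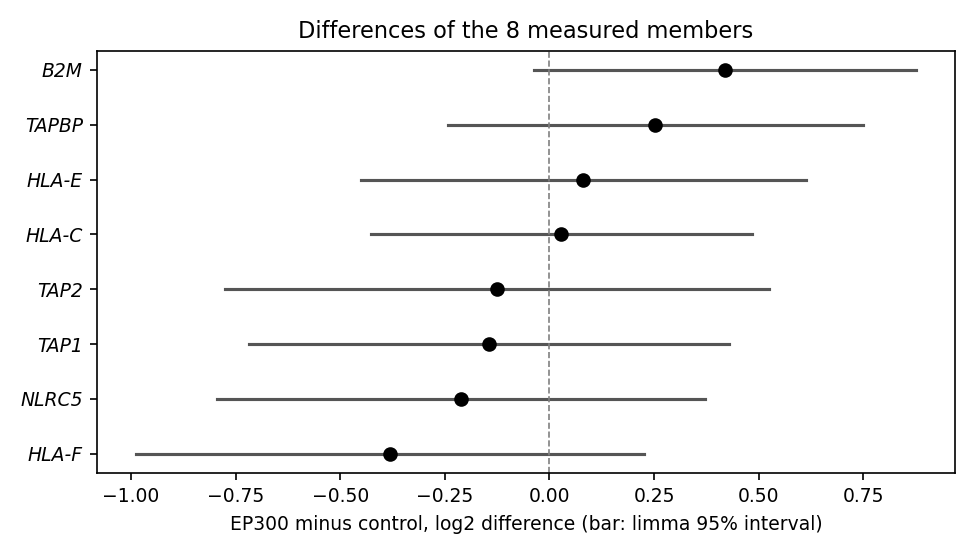
Log2 difference (EP300 minus control) of the 8 measured members, ordered by size, with limma's 95% interval as a bar. All 8 intervals include 0, from HLA-F at -0.38 to B2M at 0.42.

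The mean of the 8 centred member values ran only from -0.10 to 0.17 over the 6 arrays, highest on control replicate 2 and EP300 replicate 1. The 5 protein-coding genes whose values followed that mean most closely were OXSM, C19orf73, ZNF644, TGS1 and CEP55. Their likeness, as Pearson's r over the 6 arrays, was 0.977 to 0.984, and 46 of 7733 candidate genes had a value over 0.9. It is given as a description of these arrays, without a test.

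Among the other genes of the pathway no gene passed the adjusted threshold either. Chaperones and peptide trimming enzymes had 11 measured genes, 4 higher and 7 lower, with a median log2 difference of -0.095. Tripeptidyl peptidase TPP2 was the 1 of the 11 with an unadjusted limma p below 0.05 (0.0292), beside 6.52% of all probe sets. It read 4.92, 6.53 and 5.58 in control and 6.99, 6.003 and 7.70 in EP300 cultures. The spread within each group was wide (SD 0.81 and 0.85), and the groups overlapped. Its log2 difference was 1.22 ± 0.48 SE (limma adjusted p = 0.748, and 0.613 to 0.877 over the alternative settings), and 0.82 without EP300 replicate 3.

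ERAP2, an aminopeptidase that trims peptides in the endoplasmic reticulum, read 8.64, 8.49 and 8.40 in control and 8.80, 8.92 and 9.28 in EP300 cultures. The groups did not overlap, and the log2 difference was 0.49 ± 0.22 SE (limma adjusted p = 0.765). The groups did not overlap for 2 of the 11 genes, 1 higher and 1 lower, beside 6.30% of all probe sets higher and 5.91% lower. The lower 1 was HSPA5, named after its values were seen, at -0.26 ± 0.20 SE (limma adjusted p = 0.873). The ERAP2 partner ERAP1, named after its values were seen, read 6.08, 6.20 and 6.19 in control and 6.25, 5.84 and 5.96 in EP300 cultures, with overlapping groups. PDIA3, the disulfide isomerase of the loading complex, differed by -0.28 ± 0.21 SE (limma adjusted p = 0.869).

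The immunoproteasome and its activator had 4 measured genes, 1 higher and 3 lower, with a median of -0.12. PSMB10, an inducible catalytic subunit, read 3.75, 3.80 and 4.28 in control and 3.45, 3.07 and 3.39 in EP300 cultures. All EP300 arrays lay below the control arrays, at a log2 difference of -0.64 ± 0.23 SE (limma unadjusted p = 0.0224 and adjusted p = 0.746). It was the 1 of the 4 whose groups did not overlap, and the 1 with an unadjusted limma p below 0.05. Over all probe sets, 5.91% did not overlap with EP300 lower and 6.52% had such a p. The PSMB10 probe set lay below the array medians, where the background is unknown. PSME1, a subunit of the PA28 activator, differed by 0.44 ± 0.24 SE with overlapping groups (limma adjusted p = 0.802), and by 0.29 without control replicate 2. PSMB9, which faces TAP1, read 5.16, 4.10 and 4.66 in control and 4.33, 4.98 and 4.13 in EP300 cultures. Its EP300 replicate 1 value was not the highest, in contrast to TAP1, and its difference was -0.16 ± 0.32 SE (limma adjusted p = 0.953). That value was -0.43 without control replicate 2 and turned positive without control replicate 1 (0.10) or EP300 replicate 3 (0.019).

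The factors of class I promoters had 17 measured genes, 5 higher and 12 lower, with a median of -0.10. Of these, 0 had an unadjusted limma p below 0.05, beside 6.52% of all probe sets. The smallest p values were those of NFYA, a subunit of the Y box factor (-0.45 ± 0.30 SE), of CIITA, the class II transactivator (-0.32 ± 0.24), and of RFXAP, a subunit of the RFX complex (-0.29 ± 0.25). Their groups overlapped, and their limma adjusted p lay between 0.844 and 0.887. Single arrays carried much of these values: without EP300 replicate 2 NFYA was at -0.15 and CIITA at -0.17, without EP300 replicate 1 NFYA was at -0.70, without EP300 replicate 3 CIITA was at -0.51, and RFXAP was at -0.062 without control replicate 3 and at -0.45 without control replicate 2. Interferon gamma pathway genes had 11 higher and 10 lower of 21 measured, with a median of 0.020. IRF9, a DNA-binding factor of the interferon response, was the 1 gene of the 21 with an unadjusted limma p below 0.05 (0.00425), beside 6.52% of all probe sets, at -0.81 ± 0.22 SE (limma adjusted p = 0.735). The groups did not overlap for 5 of the 21, of which JAK2 and GBP1 were higher and IRF9, IFNGR1 and SOCS1 lower in EP300 cultures, beside 6.30% of all probe sets higher and 5.91% lower. GBP1, IFNGR1 and SOCS1 are named after their values were seen. The kinase gene JAK2 read 4.51, 3.61 and 4.10 in control and 4.62, 4.62 and 4.59 in EP300 cultures, above control but without passing (0.54 ± 0.26 SE, limma adjusted p = 0.786). The JAK2 difference was 0.31 without control replicate 2, the lowest control array. IRF8, a transcription factor of the interferon response, differed by -0.48 ± 0.24 SE (limma adjusted p = 0.791). SOCS1 (1.69 to 12.4 percentiles) and IRF8 (2.05 to 21.2) lay low on all arrays, where the background is unknown. JAK2 lay between the 29.1 and 52.7 percentiles.

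Other class I and class I-like molecules had 11 higher and 9 lower of 20 measured, with a median of 0.023. Of these, 0 had an unadjusted limma p below 0.05, beside 6.52% of all probe sets. MICA, a stress-induced ligand of the NKG2D receptor, read 9.17, 9.35 and 9.39 in control and 8.80, 9.12 and 8.79 in EP300 cultures. Every EP300 value lay below the control values, and the difference of -0.40 ± 0.21 SE did not pass (limma adjusted p = 0.794). MICA was the 1 of the 20 whose groups did not overlap, beside 5.91% of all probe sets lower and 6.30% higher. CD1E and FCGRT, the next genes by p, differed by -0.43 ± 0.30 and -0.37 ± 0.27 SE with overlapping groups. Both lay below the array medians (10.3 to 46.2 percentiles for CD1E and 10.1 to 41.3 for FCGRT), where the background is unknown. CD1E was at -0.19 without control replicate 1 and at -0.67 without EP300 replicate 1, and FCGRT at -0.16 without control replicate 2. HLA-G, which is named for its kinship with the members and after its values were seen, read 7.38, 7.21 and 7.57 in control and 7.46, 7.13 and 7.22 in EP300 cultures, with overlapping groups.

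Class II presentation genes, which CIITA and not NLRC5 chiefly controls, had 4 higher and 7 lower of 11 measured. Their median difference was -0.16, and 1 of the 11 lay above the median level of the probe sets. HLA-DPB1 differed by 0.37 ± 0.22 SE, HLA-DQB1 by -0.31 ± 0.29 and CD74, the invariant chain, by -0.28 ± 0.26. HLA-DPB1 was the 1 of the 11 whose groups did not overlap, beside 6.30% of all probe sets higher and 5.91% lower. It lay between the 14.9 and 37.9 percentiles, where the background is unknown. By limma 0 of the 11 had an unadjusted p below 0.05, beside 6.52% of all probe sets. Without EP300 replicate 2 HLA-DPB1 was at 0.23 and CD74 at -0.46, without EP300 replicate 3 CD74 was at -0.094, and HLA-DQB1 was at -0.026 without control replicate 3 and at -0.51 without control replicate 1. Of 7 measured immune cell receptors that bind class I, 0 lay above the median level, and their median difference was -0.14.

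**Figure D4:**
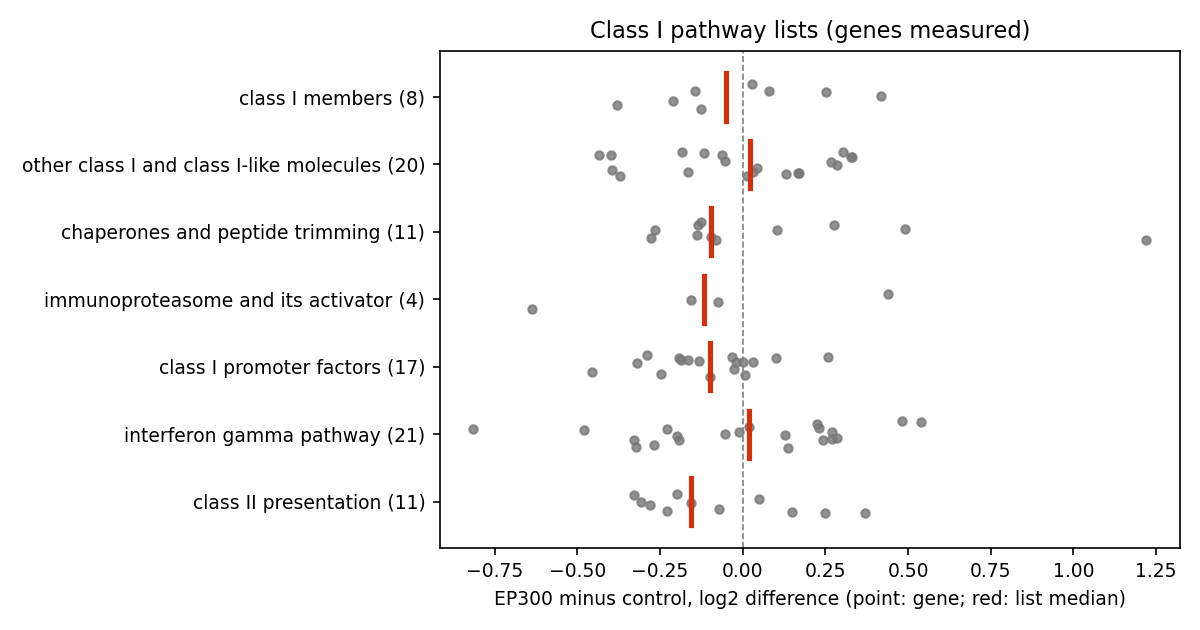
Log2 differences (EP300 minus control) of the measured genes of 7 class I pathway lists, 1 point a gene with small vertical scatter for visibility, and the list median in red. List medians lie between -0.16 and 0.023, and TPP2 at 1.22 is the point farthest from 0.

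Of the chromosome 6 members, HLA-F stands first and TAPBP last in gene order, in the major histocompatibility complex. The other genes in between, a list made after the values were seen, had 94 measured, 36 higher and 58 lower, with a median log2 difference of -0.071. EP300 replicate 1 was the highest array for 8 of these 94 (8.51%), a share below the 15.6% over all genes. By limma 0 of the 94 passed, and 2 had an unadjusted p below 0.05, beside 6.52% of all probe sets: CCHCR1 at -0.62 and HCG27 at 0.58, both named after their values were seen.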

How the data were processed

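Total RNA of 6 HS578T cultures was hybridised to Affymetrix whole-transcript arrays, 1 array a culture. The authors' deposited values are taken as log2 values, a scale inferred from their range. Partek 6.6 was used, per the submitters' processing notes. The background correction, normalization and genome build were not given in the sources used here. Precision is limited by having 6 arrays.

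Gene names came from the platform annotation (17709 with 1 symbol, 0 with several, 3739 unnamed), with all 17709 gene identifiers found in a RefSeq table of GRCh38.p14. Of the probe sets, 19 did not vary by more than 0.001 and none of these is a member. EP300 minus control, 3 against 3, was fitted with limma 3.58.1 (R 4.3.3) over all 21448 probe sets, with no filter, covariate or block. Benjamini-Hochberg adjustment ran over all of them, at a threshold of 0.05. Errors are SD over 3 cultures, or limma's moderated SE and 95% intervals for differences. The fit was tested on simulated data with changes set in advance. At the threshold used it recovered 0.1% of log2 changes of 0.5 and 8.8% of changes of 1. For changes of 2 and 3 it recovered 87.2% and 97.3%. The largest member difference was 0.42, so the lack of passing members does not show a lack of change. Gene lists take 1 probe set a gene, the one with the highest mean.

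The members and lists were chosen with earlier results of these data known. The rule for names takes all members, the 3 genes with the smallest p of each pathway list, marker genes above the median level, and the 5 genes most like the mean member profile (protein-coding, above the median level, SD of at least 0.2). Alternatives were quantile normalization, median centring, a level filter, 1 probe set a gene, a variance trend with robust estimation, a replicate block, each array left out, and, for the members' median, the mean over a gene's probe sets.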

Additional observations from a re-analysis of the deposited data

How the results depend on the processing

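With the settings tried, 0 probe sets passed, except that a variance trend with robust estimation passed 4, none of them a member. All differences of the 8 members kept their direction outside the settings that leave out 1 array, and none passed in any setting. Leaving out 1 array gave HLA-C from -0.026 to 0.10, HLA-E from -0.12 to 0.23, TAP1 from -0.36 to 0.042, TAP2 from -0.45 to 0.037, NLRC5 from -0.36 to 0.0056 and PSMB9 from -0.43 to 0.10, so these 6 changed sign, while HLA-F (-0.53 to -0.14), B2M and TAPBP (0.10 to 0.37) did not. The cause was not tested. The median of the member genes ran from -0.10 to 0.069. By list, the medians ran from -0.062 to 0.080 (other class I-like), from -0.16 to -0.040 (chaperones), from -0.15 to -0.062 (promoter factors), from -0.037 to 0.17 (interferon gamma pathway), from -0.38 to 0.022 (class II), from -0.24 to 0.013 (immune cell receptors), from -0.40 to 0.070 (immunoproteasome), from -0.17 to -0.078 (mesenchymal), from -0.039 to 0.11 (epithelial), from -0.074 to 0.14 (leukocyte), from -0.072 to 0.093 (endothelial) and from -0.080 to -0.013 (HLA-F to TAPBP). Among probe sets above the median level the interferon gamma median was 0.23 over 9 genes and the leukocyte one -0.18 over 3, where fewer genes were left, and quantile normalization gave a mesenchymal median of -0.096. Equal replicate numbers did not pair the arrays (correlations of their deviations -0.0015, -0.0053 and -0.0089). With the number as a replicate block 0 probe sets passed, and B2M stayed at 0.42 (limma adjusted p = 0.838). TAP1 and NLRC5 could not be tested among probe sets above the median level. Without detection calls, weak probe sets such as TAP1 and NLRC5 limit what their values show.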
